A study of Mus musculus with 4 samples.

Results

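Scavenger and mannose receptors let macrophages bind and engulf modified lipoproteins, microbes, dying cells, worn-out serum proteins and free hemoglobin. The group described here has 10 members, chosen by name: the class A receptors Msr1, Marco and Colec12, the class B receptors Cd36 and Scarb1, the cysteine-rich (SRCR) proteins Cd163 and Cd5l, the stabilin Stab1, and the mannose receptor family members Mrc1 and Mrc2. A gene belonged when the RefSeq accession of a probe mapped to it, which gave 14 probes for all 10 members, out of 22903 genes with a named probe. Of the 10, 8 were well above background on all 4 arrays, Cd163 on the macrophage arrays alone, and Mrc2 on no array.

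RNA came from mouse bone marrow cultures of 4 groups, with 1 one-colour array each: LysM-St18flox osteoclasts, wild-type osteoclasts, LysM-St18flox macrophages and wild-type macrophages. Macrophages were marrow cells kept for 4 days in 25 ng/ml M-CSF, and osteoclasts were such macrophages cultured for 3 more days with RANKL (50 ng/ml), which induces osteoclasts, and M-CSF (25 ng/ml), so RANKL and culture time changed together. By convention the name LysM-St18flox denotes a loxP-flanked St18 gene, which encodes a zinc finger transcription factor, with Cre made from the lysozyme M (Lyz2) locus of myeloid cells. The sources used here do not give the mice's age or sex, or how many were used. With 1 array per group no difference has a replicate check, no test was possible, and precision is limited by having 1 array each.

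Macrophages of many tissues carry these receptors, and several of them are used as marks of resident or alternatively activated macrophages. Class A receptors take up acetylated or oxidised LDL and bacteria, and class B receptors move fatty acids and cholesterol between lipoproteins and cells. CD163 takes up hemoglobin bound to haptoglobin, and the mannose receptor CD206, the product of Mrc1, takes up glycoproteins that end in mannose. Osteoclasts arise from the same precursors as macrophages but resorb bone by secreting acid and proteases.

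The osteoclast labels were borne out by osteoclast markers. All 10 of these, among them Ctsk and Acp5, were at least 2-fold higher in osteoclasts of both genotypes. All 10 macrophage markers, among them Adgre1 and Csf1r, were well above background on every array, which does not tell the cell types apart. The share of spots well above background was 59.0% to 63.2%, and no spot was saturated. Levels are log2 of the processed signal minus the 75th percentile of the array, so 0 is the signal of a probe at that percentile, and differences are on the log2 scale. Between spots of the same probe on an array the SD had a median of 0.031 to 0.042, which gives 0.045 to 0.056 for a difference of arrays. This covers the measurement on an array and not mice or cultures. St18 was at 1.12 in LysM-St18flox osteoclasts against 1.55 in wild-type osteoclasts, and at -1.52 in LysM-St18flox macrophages against 0.29 in wild-type macrophages. The sources used here do not place its probe relative to the floxed part, so St18 does not check the deletion. Bulk RNA cannot tell fewer cells of a type from less RNA per cell.

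Promoters are shown for the 4 members whose signal was at least 8-fold lower in osteoclasts of both genotypes, to set these windows side by side. Cd163 met this limit through a bound, as given with its values. With another background correction, normexp, Cd163 and Cd5l fell short of 8-fold in wild-type cells (log2 differences of -2.19 and -2.80). The windows are RefSeq sequences of build GRCm38.p6, from 250 bases before the gene's start to 50 bases after it, in the direction of the gene. The array headers name another mouse build, and no array value depends on these coordinates. Marco lies at chr1:120504975-120505274 on the minus strand, Cd163 at chr6:124304401-124304700, Mrc1 at chr2:14229164-14229463 and Cd5l at chr3:87357631-87357930, all 3 on the plus strand. Capitals mark letters matching GAGGAA, the core bound by the myeloid factor PU.1, or TGCTGA, a partial site of the Maf factors, on either strand.
Marco: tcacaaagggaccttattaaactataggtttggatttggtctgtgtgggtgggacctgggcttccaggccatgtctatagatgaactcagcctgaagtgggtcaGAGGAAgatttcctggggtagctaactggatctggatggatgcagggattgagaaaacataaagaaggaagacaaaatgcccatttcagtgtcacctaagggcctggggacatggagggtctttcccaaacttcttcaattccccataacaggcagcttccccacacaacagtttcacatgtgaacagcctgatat
Cd163: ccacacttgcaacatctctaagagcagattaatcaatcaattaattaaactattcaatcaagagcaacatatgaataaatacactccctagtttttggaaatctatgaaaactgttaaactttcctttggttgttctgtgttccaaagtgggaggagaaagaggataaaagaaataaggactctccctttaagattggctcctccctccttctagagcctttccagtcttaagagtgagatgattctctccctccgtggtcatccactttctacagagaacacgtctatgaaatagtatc
Mrc1: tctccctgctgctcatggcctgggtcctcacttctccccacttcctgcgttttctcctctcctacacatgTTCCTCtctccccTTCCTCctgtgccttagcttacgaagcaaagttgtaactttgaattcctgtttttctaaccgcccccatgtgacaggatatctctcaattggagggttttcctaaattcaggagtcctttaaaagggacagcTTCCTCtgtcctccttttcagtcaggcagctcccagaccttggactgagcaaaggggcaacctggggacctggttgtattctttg
Cd5l: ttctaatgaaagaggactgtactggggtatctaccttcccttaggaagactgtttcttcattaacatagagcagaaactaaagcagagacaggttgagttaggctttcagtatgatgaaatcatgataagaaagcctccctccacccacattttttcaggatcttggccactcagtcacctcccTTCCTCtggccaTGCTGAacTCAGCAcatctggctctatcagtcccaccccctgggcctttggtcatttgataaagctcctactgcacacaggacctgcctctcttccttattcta

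Promoters of 6 members were searched, and no window of Msr1, Scarb1, Mrc2 or Colec12 was. GAGGAA was present in 4 of the 6, Marco, Mrc1, Stab1 and Cd5l, and in 28.3% of all 32851 promoters of the same length. Mrc1 held it 3 times. TGCTGA was present in Cd36, Stab1 and Cd5l, where it occurred once on each strand within a short stretch, and in 19.5% of all promoters. AGGTCA, a partial site of nuclear receptors, was found in Cd36 and in 16.3% of all promoters. TGANTCA of AP-1 (7.81% of all promoters), the E-box CACGTG (7.15%) and TATAAA (13.6%) were found in none of the 6. Matches did not overlap, and the Cd163 window held none. A match describes the letters in this window and is not evidence of binding.

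Osteoclasts had far lower signals than macrophages for 7 of the 9 measured receptors, and did so in both genotypes. These were Marco, Mrc1, Cd163, Cd5l, Stab1, Cd36 and Msr1. Cd163 entered through the macrophage arrays alone, as a bound that could only be lower in osteoclasts. Of the 8 members well above background on all 4 arrays, 6 were at least 2-fold lower in each genotype. Scarb1 and Colec12 did not reach 2-fold in either genotype, and no member was higher in osteoclasts. The 2-fold limit is a rule of size and no test. Of 15573 genes measured in LysM-St18flox, 12.2% were lower by that much and 10.9% higher. Of 14731 measured in wild-type cells, 7.32% were lower and 5.70% higher. The median difference of the 9 receptors was -3.84 in LysM-St18flox cells and -2.22 in wild-type cells, with the Cd163 bounds included. Over all measured genes it was -0.02 and 0.00. Of the 10 macrophage markers, 7 were at least 2-fold lower in LysM-St18flox osteoclasts and 4 in wild-type osteoclasts. Lyz2, from whose locus the Cre is made by the naming convention, counted in LysM-St18flox alone (-1.87, against -0.89 in wild-type cells). The summed signal of the 10 markers, in units of the array's 75th percentile, was 541 in LysM-St18flox osteoclasts and 524 in wild-type osteoclasts. It was 810 in LysM-St18flox macrophages and 877 in wild-type macrophages. Csf1r (-0.39 in LysM-St18flox cells and -0.91 in wild-type cells) and Cd68 (-0.06 and -0.45) were brightest on every array and weighed most in it. Siglec1 (-5.61 and -5.1), Fcgr1 (-4.39 and -4.3) and Mertk (-4.22 and -2.3) were lowered most of the list. The list medians were -1.79 and -0.95, and all but Itgam in wild-type cells (0.1) were lower. The part of these markers in the receptor differences was not tested.

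**Figure D1:**
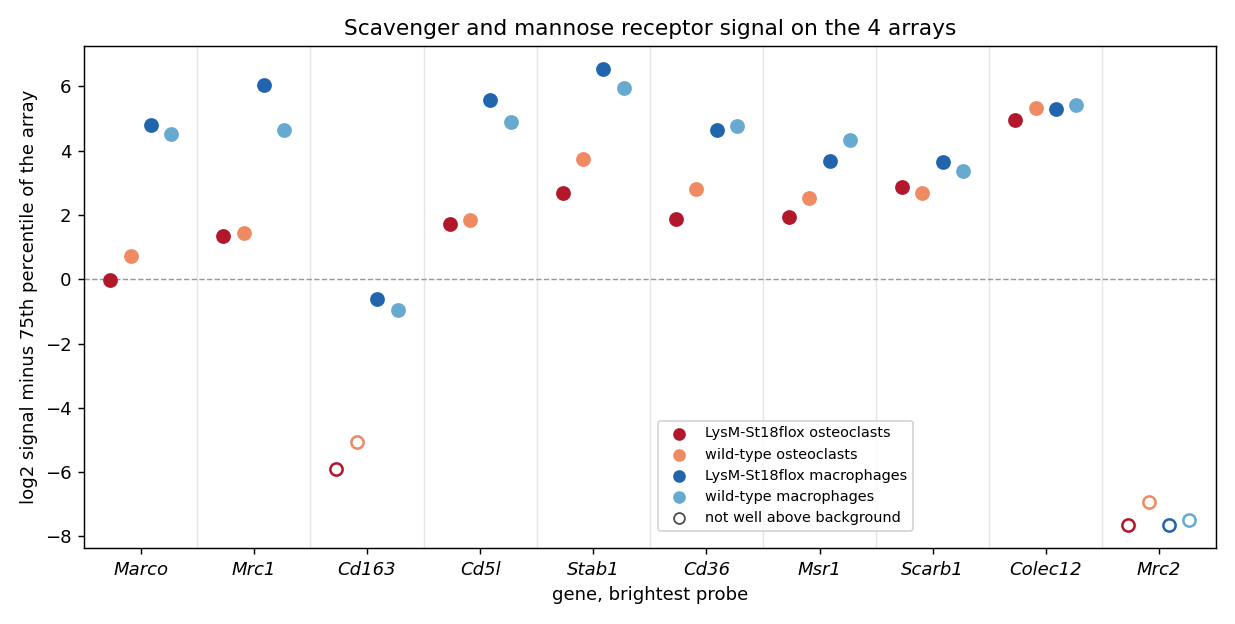
Signal of the 10 receptors on each of the 4 arrays, as log2 of the processed signal of the brightest probe minus the array's 75th percentile (y axis, log2). Each point is 1 array, and open points were not well above background. For the 7 genes on the left both osteoclast arrays lie below both macrophage arrays, with Mrc1 at 1.36 and 1.45 against 6.06 and 4.65. Heights are to be compared within a gene and not between genes, since probes differ.

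Among the class A receptors, Marco, which binds bacteria and inhaled particles, was one of the most strongly lowered genes on the arrays. It was at -0.03 in LysM-St18flox osteoclasts and 0.73 in wild-type osteoclasts, against 4.81 in LysM-St18flox macrophages and 4.51 in wild-type macrophages. Osteoclasts thus had 28.6-fold less Marco signal than macrophages in LysM-St18flox cells and 13.8-fold less in wild-type cells. Only 18 of the 15573 genes measured in LysM-St18flox and 20 of the 14731 in the wild type had a lower difference.

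Msr1, the founding class A receptor for modified LDL, was lowered to a smaller extent. Its level was 1.94 in LysM-St18flox osteoclasts and 2.53 in wild-type osteoclasts, against 3.67 in LysM-St18flox macrophages and 4.32 in wild-type macrophages. The osteoclast signal was 3.33-fold lower in LysM-St18flox cells and 3.47-fold lower in wild-type cells. Its other probe gave differences of -1.6 and -1.5, in the same direction.

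Colec12, a class A relative with a lectin domain, was nearly level. It was at 4.97 in LysM-St18flox osteoclasts and 5.33 in wild-type osteoclasts, against 5.30 in LysM-St18flox macrophages and 5.42 in wild-type macrophages. In decreasing order, wild-type macrophages, wild-type osteoclasts and LysM-St18flox macrophages were separated by steps of 0.09 and 0.03, each under 2 of the SDs calculated from spots of an array. LysM-St18flox osteoclasts lay 0.32 below the next array.

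Of the class B receptors, Cd36, which takes up fatty acids and oxidised LDL, was lower in osteoclasts. It was at 1.88 in LysM-St18flox osteoclasts and 2.81 in wild-type osteoclasts, against 4.64 in LysM-St18flox macrophages and 4.77 in wild-type macrophages. The osteoclast signal was 6.78-fold lower in LysM-St18flox cells and 3.88-fold lower in wild-type cells, and the osteoclast arrays differed more from each other than the macrophage arrays did.

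Scarb1, the HDL receptor SR-BI, was the other class B member and stayed within 2-fold. Its brighter probe was at 2.86 in LysM-St18flox osteoclasts and 2.68 in wild-type osteoclasts, against 3.64 in LysM-St18flox macrophages and 3.37 in wild-type macrophages, which is 1.72-fold and 1.62-fold lower in osteoclasts of the same genotypes. A dimmer probe, assigned to another RefSeq transcript of the gene, was at -1.80 and -0.91 in osteoclasts and at -1.07 and -0.34 in macrophages, in the same order of genotypes. Both probes were lower in osteoclasts, but they disagreed on genotype. LysM-St18flox minus wild-type was 0.18 in osteoclasts and 0.26 in macrophages with the brighter probe, and -0.89 and -0.73 with the dimmer one. Whether this reflects the transcripts or the probes was not tested.

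Cd163 and Cd5l, listed here as SRCR proteins, were among the most lowered members. Cd163, the hemoglobin and haptoglobin receptor, was not well above background in osteoclasts, where its processed signals were 17.9 in LysM-St18flox cells and 22.8 in wild-type cells. In macrophages its levels were -0.62 in LysM-St18flox cells and -0.96 in wild-type cells. Its differences are therefore bounds, set by the dimmest detected probe of the osteoclast array, or by Cd163's own signal there if brighter. The signal was at least 29.4-fold lower in LysM-St18flox osteoclasts and at least 15.3-fold lower in wild-type osteoclasts. The size depended on the background correction: with normexp the log2 differences were -3.05 in LysM-St18flox cells and -2.19 in wild-type cells, against bounds of -4.88 and -3.93 as reported. Its second probe was not well above background on any array, and the median over both probes gave -1.26 in LysM-St18flox cells and -0.64 in wild-type cells.

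Cd5l encodes a secreted SRCR protein of macrophages, also called AIM, that protects them from apoptosis and is taken up through CD36. It was at 1.73 in LysM-St18flox osteoclasts and 1.84 in wild-type osteoclasts, against 5.57 in LysM-St18flox macrophages and 4.90 in wild-type macrophages. Osteoclast signals were 14.4-fold lower in LysM-St18flox cells and 8.35-fold lower in wild-type cells.

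Stab1, stabilin-1, is an endocytic receptor of tissue macrophages and sinusoidal endothelium that clears extracellular SPARC. It was at 2.68 in LysM-St18flox osteoclasts and 3.74 in wild-type osteoclasts, against 6.55 in LysM-St18flox macrophages and 5.96 in wild-type macrophages. The 4 arrays were spread out, and the osteoclast signal was 14.6-fold lower in LysM-St18flox cells and 4.67-fold lower in wild-type cells.

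Of the mannose receptor family, Mrc1 was at 1.36 in LysM-St18flox osteoclasts and 1.45 in wild-type osteoclasts, a step of 0.08 that is under 2 of the SDs calculated from spots. The macrophage levels, 6.06 in LysM-St18flox cells and 4.65 in wild-type cells, stood far above both and apart from each other. Osteoclast signals were 25.9-fold lower in LysM-St18flox cells and 9.19-fold lower in wild-type cells. Mrc2, the collagen receptor Endo180 of fibroblasts, was not well above background on any array with either of its 2 probes. Of the other family members, the phospholipase receptor gene Pla2r1 was well above background in macrophages alone (-4.71 in LysM-St18flox cells and -4.67 in wild-type cells), and Ly75, the DEC-205 receptor of dendritic cells, on no array.

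**Figure D2:**
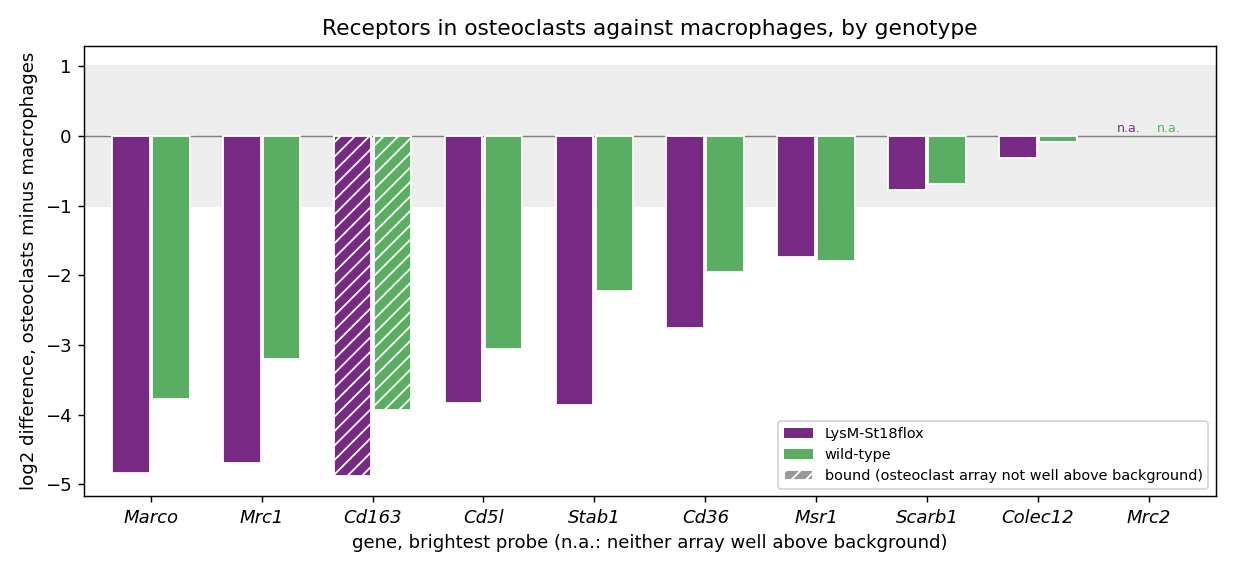
Log2 difference of each receptor between osteoclasts and macrophages of the same genotype (y axis), 1 bar per genotype from 1 pair of arrays, without error bars because each group had 1 array. Hatched bars are bounds, n.a. marks a gene not well above background on either array, and the grey band spans less than 2-fold. The bars of 7 genes leave the band in both genotypes, from the Cd163 bounds at -4.88 and -3.93, and Marco at -4.84 and -3.78, to Msr1 at -1.74 and -1.79.

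Between genotypes the receptors differed much less. In osteoclasts, Stab1 was the member past 2-fold among 8 measured, 2.08-fold lower in LysM-St18flox. Of 14613 genes 3.94% were lower by at least 2-fold and 3.80% higher. Cd36 was 1.91-fold lower, Marco 1.70-fold lower and Msr1 1.51-fold lower. Mrc1 (-0.08) and Cd5l (-0.11) were almost level, and the sign of both turned with each array centred on its median (0.17 and 0.14), that of Mrc1 also with normexp (0.01). The Stab1 value was -0.81 with that scaling, under which the median of all genes was 0.24, against 0.00. In the same comparison 8 of the 10 osteoclast markers were at least 2-fold higher in LysM-St18flox, and their part in the receptor differences was not tested.

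In macrophages, Mrc1 was the member past 2-fold among 9 measured. It was 2.66-fold higher in LysM-St18flox macrophages than in wild-type macrophages, and 196 of 15159 genes had a higher difference, while 3.30% were at least 2-fold higher and 2.98% lower. Cd5l was 1.59-fold higher, Stab1 1.5-fold higher, Cd163 1.26-fold higher and Marco 1.23-fold higher. Msr1 was 1.57-fold lower, and Cd36 (-0.13) and Colec12 (-0.12) were close to level.

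**Figure D3:**
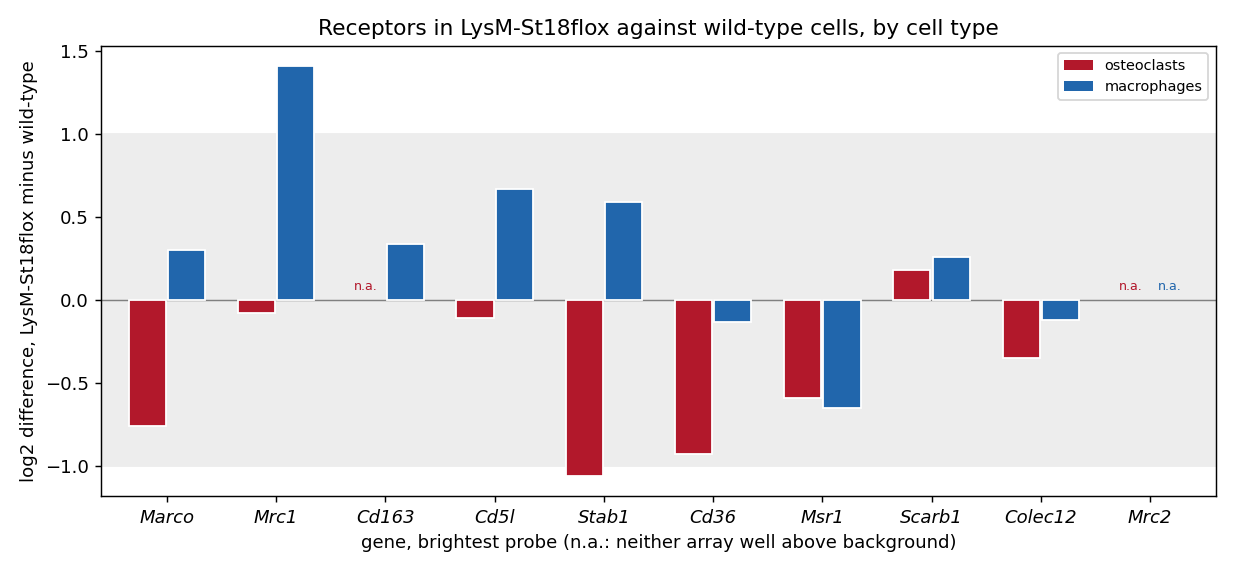
Log2 difference of each receptor between LysM-St18flox and wild-type cells of the same type (y axis), 1 bar per cell type from 1 pair of arrays, without error bars. The grey band spans less than 2-fold and n.a. marks a gene not well above background on either array. Mrc1 in macrophages (1.41) and Stab1 in osteoclasts (-1.06) leave the band.

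The osteoclast response was larger in LysM-St18flox than in the wild type for several members. The difference of the 2 responses passed 2-fold downwards for Stab1 (-1.65), Mrc1 (-1.49) and Marco (-1.06) among the 8 members well above background on all 4 arrays, against 4.70% of 13670 genes, with 3.20% upwards. It can be split into the genotype difference in osteoclasts minus that in macrophages, on the same 4 arrays. For Mrc1 nearly all of it lay in macrophages (-0.08 in osteoclasts, 1.41 in macrophages). For Stab1 it lay in both (-1.06 and 0.59), and for Marco more in osteoclasts (-0.76 and 0.30). Cd36 (-0.80) and Cd5l (-0.78) differed by less than 2-fold, the first through osteoclasts (-0.93 and -0.13) and the second through macrophages (-0.11 and 0.67). Msr1 had about equal responses (0.06), with both cell types lower in LysM-St18flox. Marco was at -0.82 with each array centred on its median and at -0.95 with the normexp background correction, under 2-fold in both. Osteoclast markers differed in the same comparison: all 8 measured had a positive difference of responses, 4 of them past 2-fold, with a median of 0.97 and Dcstamp, a fusion gene, at 2.98. Of the 10 macrophage markers 8, with Lyz2 at -0.98, were negative and 1, Mertk (-1.92), was past 2-fold. Their part in the receptor differences was not tested.

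Genes with the most similar pattern were sought among 13669 genes well above background on all 4 arrays, by the root mean square (RMS) difference of levels after each gene was centred on its own mean. With 4 arrays this describes a shape and no more. Nearest to Marco were the ribonuclease gene Rnase4 (RMS 0.106), the iron exporter ferroportin gene Slc40a1 (0.248) and Wfdc17 (0.249). Nearest to Mrc1 were the purinergic receptor gene P2ry13 (0.191), the transcription factor gene Maf (0.209) and the laminin gene Lama3 (0.212). Nearest to Stab1 were the transcription factor gene Pou2f2 (0.044), the sphingosine-1-phosphate receptor gene S1pr1 (0.064) and Rab3il1 (0.098).

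Cd5l was closest to the chemokine receptor gene Ccr2 (0.060), then B3gnt9 (0.124) and Smagp (0.129). Cd36 was closest to Fabp3 (0.054), which encodes a fatty acid binding protein, then Neurl1a (0.069) and Sesn3 (0.082). Msr1 was closest to Galnt9 (0.064), Syt11 (0.091) and 9030619P08Rik (0.097). Scarb1 was closest to Sirpa (0.013), the receptor for the CD47 signal, then Cep250 (0.020), and Colec12 to Vmn1r192 (0.022), Gm45351 (0.023) and Tlcd2 (0.023). The small values of Scarb1 and Colec12 go with small ranges over the arrays, of 0.96 and 0.44, against 4.84 for Marco and 4.69 for Mrc1.

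Of 10 other scavenger receptors measured, 4 were at least 2-fold lower in LysM-St18flox osteoclasts and 1 in wild-type osteoclasts, and none was higher, with medians of -0.69 and -0.46. Over all genes 12.2% were lower in LysM-St18flox osteoclasts and 7.32% in wild-type osteoclasts, so the wild-type count was near the background. Lrp1, a large endocytic receptor for lipoproteins and protease complexes, was lower in both genotypes (-1.34 in LysM-St18flox cells and -1.14 in wild-type cells). Scara3, Scara5, Olr1 and Megf10 were not well above background on any array.

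Other proteins with SRCR domains went both ways, as did all genes (10.9% higher and 12.2% lower in LysM-St18flox osteoclasts, 5.70% and 7.32% in wild-type osteoclasts). Of 8 measured in each genotype, 3 were higher and 2 lower in LysM-St18flox osteoclasts, and 2 were higher and 1 lower in wild-type osteoclasts, with medians of 0.04 and -0.37. Cd5, an SRCR receptor best known from lymphocytes, was higher by 5.90 in LysM-St18flox cells and by 3.80 in wild-type cells, opposite to Cd5l. Ssc5d, a soluble SRCR protein, was higher by 1.74 and 1.6. Loxl3, a lysyl oxidase-like enzyme, was lower, at -1.90 and -1.64.

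Of 15 genes of lipid handling around Cd36 and Scarb1, 7 were at least 2-fold lower and 1 higher in LysM-St18flox osteoclasts, against 12.2% lower and 10.9% higher over all genes. In wild-type osteoclasts 1 was lower and 1 higher, near the shares of 7.32% and 5.70% over all genes. The list medians were -0.94 in LysM-St18flox cells and -0.57 in wild-type cells. Apoe, the apolipoprotein secreted by macrophages, was at -3.31 in LysM-St18flox cells and -1.83 in wild-type cells. Acsl1, which activates fatty acids, was at 1.63 and 1.31.

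Of the genes of heme and iron handling around Cd163, 5 of 11 were at least 2-fold lower in LysM-St18flox osteoclasts and 2 of 10 in wild-type osteoclasts, against 12.2% and 7.32% of all genes, and none was higher. Slc40a1, which exports iron, was at -5.10 in LysM-St18flox cells and -3.34 in wild-type cells. Hmox1, the heme-degrading enzyme, was at -1.93 and -1.35, and LysM-St18flox minus wild-type was -1.58 in osteoclasts and -1.0 in macrophages. The medians of -0.76 and -0.68 compare with -0.02 and 0.00 over all genes.

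Collagen turnover genes, set beside the collagen receptor gene Mrc2, had 2 of 9 higher and 1 lower in osteoclasts of each genotype, against 10.9% higher and 12.2% lower over all genes in LysM-St18flox osteoclasts and 5.70% and 7.32% in wild-type osteoclasts. Ctsk, the collagen-degrading protease of the osteoclast, was higher by 8.34 in LysM-St18flox cells and by 7.69 in wild-type cells. Mmp14, a membrane-bound collagenase, was higher by 5.76 and 4.38, and Plau, the urokinase gene, was lower, at -2.04 and -2.17.

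Of 20 transcription regulators of myeloid and lipid genes, 6 were at least 2-fold lower and 5 higher in LysM-St18flox osteoclasts, and 5 were lower and 3 higher in wild-type osteoclasts. Over all genes 12.2% were lower and 10.9% higher in LysM-St18flox osteoclasts, and 7.32% and 5.70% in wild-type osteoclasts. Among those lower in both were Maf (-4.28 in LysM-St18flox cells and -3.22 in wild-type cells), Irf8 (-3.58 and -2.55), Irf4 (-4.26 and a bound of -2.40) and Rxra (-2.12 and -1.54). Higher in both were Nfatc1 (3.33 and 2.33), Spic (1.44 and 4.04) and Bach2 (2.12 and a bound of 1.07). Spi1, which encodes PU.1, was at 1.06 and 0.45, and Pparg and Nr1h3, nuclear receptors that act on Cd36 and Cd5l, were at -0.28 and 0.29 and at 1.08 and 0.78.

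**Figure D4:**
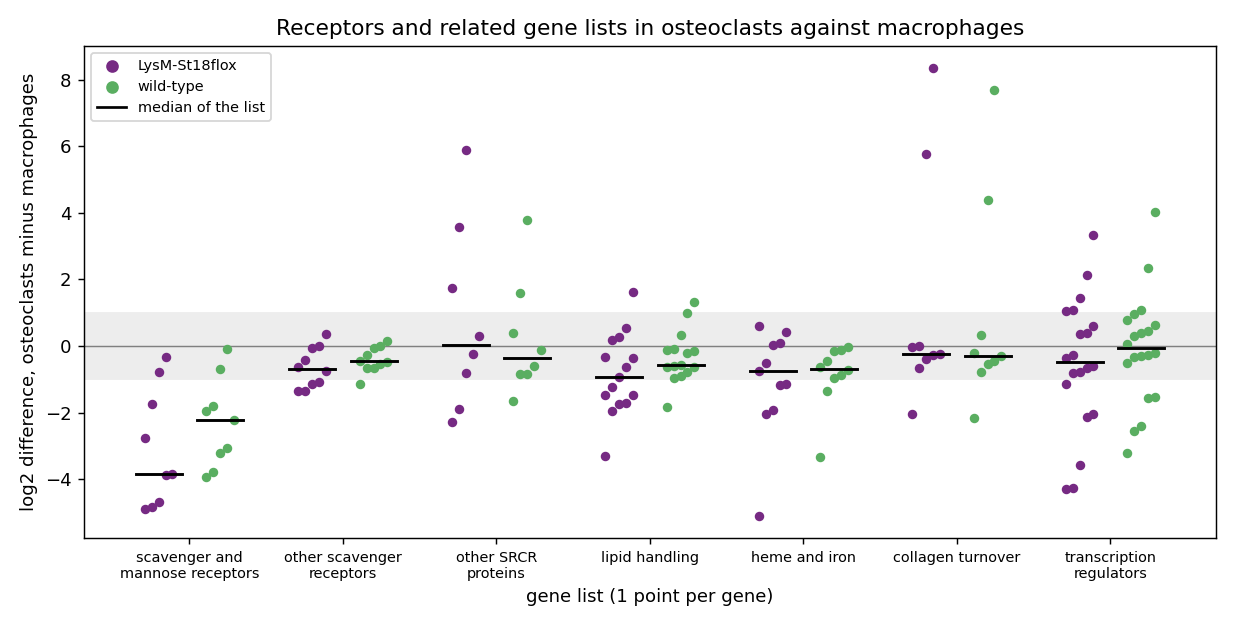
Log2 difference between osteoclasts and macrophages of the same genotype (y axis) for each measured gene of the receptor group and of 6 related lists, 1 point per gene, with the list median as a black line and the range under 2-fold in grey. The receptors have medians of -3.84 and -2.22, and the 6 other lists have medians between -0.94 and 0.04.

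Markers of other cells were detected in part. Of 6 endothelial markers, Lyve1 and Tek were not well above background on any array, Cdh5 was on 2 arrays, and Stab2, Pecam1 and Kdr were on all 4. The summed signal of the endothelial list was 0.918 in LysM-St18flox osteoclasts and 0.944 in wild-type osteoclasts, against 1.33 in LysM-St18flox macrophages and 1.87 in wild-type macrophages. Of 7 stromal markers, Col1a1, Col3a1, Pdgfra, Pdgfrb and Lum were not well above background on any array. Col1a2 and Dcn were dim but well above background on all 4. As osteoclasts minus macrophages, Dcn was at 1.65 in LysM-St18flox cells and 1.26 in wild-type cells, and Col1a2 at -0.1 and 0.38. Over all genes 10.9% and 5.70% were at least 2-fold higher in osteoclasts of these genotypes. Of 4 adipocyte markers, Adipoq, Plin1 and Cidec were not well above background on any array, and Lep was on all 4.

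All 8 neutrophil markers were well above background on every array. Their summed signal was 9.82 in LysM-St18flox osteoclasts and 14.2 in wild-type osteoclasts, against 40.4 in LysM-St18flox macrophages and 33.1 in wild-type macrophages. Mmp8, a neutrophil collagenase, was at 1.20 in LysM-St18flox osteoclasts and 2.25 in wild-type osteoclasts, against 4.66 in LysM-St18flox macrophages and 4.33 in wild-type macrophages. Mmp8 had the highest level of the list on both macrophage arrays, so it weighed most in the macrophage sums. Of the 8 markers, 5 were at least 2-fold lower in LysM-St18flox osteoclasts, against 12.2% of all genes. In wild-type osteoclasts 1 was, Mmp8, near the share of 7.32% over all genes. The list medians were -1.20 in LysM-St18flox cells and -0.51 in wild-type cells.

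Among 5 B cell markers, Cd79a was not well above background on any array. The summed signal of the list was 0.219 in LysM-St18flox osteoclasts and 0.361 in wild-type osteoclasts, against 1.5 in LysM-St18flox macrophages and 1.16 in wild-type macrophages. Cd79b, which encodes a subunit of the B cell receptor complex, was at -3.29 in LysM-St18flox cells and -2.23 in wild-type cells as osteoclasts minus macrophages. Of 5 megakaryocyte markers, Itga2b and Gp9 were not well above background, and the summed signal was 0.151 in LysM-St18flox osteoclasts and 0.301 in wild-type osteoclasts, against 0.487 in LysM-St18flox macrophages and 0.279 in wild-type macrophages. The sum of 6 dendritic cell markers was 5.06 in LysM-St18flox osteoclasts and 3.21 in wild-type osteoclasts. It was 1.01 in LysM-St18flox macrophages and 1.77 in wild-type macrophages. Itgax was the brightest of the list on every array and weighed most in the sum. Of 5 markers measured in LysM-St18flox cells, Itgax alone was at least 2-fold higher in osteoclasts (2.53), against 10.9% of all genes. In wild-type cells none of 3 was higher (5.70% of all genes), with Itgax at 0.97, and Xcr1 was lower (bound of -1.16, 7.32% of all genes). The part of other cells in the receptor differences was not tested.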

How the data were processed

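Members and gene lists were chosen with earlier results of these data known. RNA (100 ng) was labelled with Cy3, per the labels' protocols, and the submitters' processing notes name Agilent Feature Extraction 11.0.1.1. The scanner files deposited by the authors hold a processed intensity per spot, background-subtracted within the array and not scaled between arrays per the file headers. Per the file headers, other columns are 0 or 1 marks of detection, saturation and uneven spots. The authors also deposited log2 values of 30909 probes, quantile-normalized as the values show, with a median of 9.39. The sources used here do not say how they were made. They hold the brightest probe of 8 members.

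Uneven or outlying spots (80 to 126 per array) and controls were left out, spots of a probe were averaged on the log2 scale, and the 75th percentile of the array was subtracted. Of 56605 probes, 32994 were named by RefSeq accession through a gene table of GRCm38.p6. The probe with the highest mean signal stands for a gene, and other probes of members are given. A gene entered a comparison when detected on either array, or on all 4 for the difference of responses. With 1 dim array the difference is a bound. The rule named all 10 members, genes of each list past 2-fold in the same direction in both genotypes or both cell types, and the 3 genes nearest in pattern. Genes outside it were chosen after their values were seen. Some genes that the rule names are not reported here. Alternatives were normexp correction (limma 3.58.1, offset 50), median centring, quantile normalization, the authors' values, no filter, a stricter filter, and the median over probes. Calls were tested on simulated data, which checks the code and not variation between mice or cultures. Python 3.11.15, numpy 2.4.6 and pandas 2.3.3 were used.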

Additional observations from a re-analysis of the deposited data

Results flagged for a closer look

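For 4 receptors the genotype difference had opposite directions in the 2 cell types, and the difference between them was not tested. LysM-St18flox minus wild-type was -1.06 in osteoclasts and 0.59 in macrophages for Stab1, and -0.76 in osteoclasts and 0.30 in macrophages for Marco. For Mrc1 it was -0.08 in osteoclasts and 1.41 in macrophages, and for Cd5l -0.11 in osteoclasts and 0.67 in macrophages. The osteoclast values of Mrc1 and Cd5l are small and turned sign with median centring.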

How the results depend on the processing

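Over 7 alternative settings, 290 of 295 recomputed receptor differences kept their side of 2-fold. The 5 others were Cd163 in the wild type with the median over its probes (-0.64), Stab1 in osteoclasts with median centring (-0.81), so that 0 receptors were past 2-fold there, and in the difference of responses Marco with median centring (-0.82) and normexp (-0.95), and Cd5l with normexp (-1.05). Normexp kept Cd163 past 2-fold but smaller (-3.05 in LysM-St18flox, -2.19 in wild-type cells). The sign changed in 11, all of them differences under 2-fold. Of 35 receptor counts 34 stayed within 1.5 times, and 27 of 35 counts over all genes did. Without the filter on dim probes the counts over all genes were 2985 against 1918 (osteoclasts against macrophages, wild-type), 2093 against 952 (LysM-St18flox against wild-type, macrophages), 2330 against 1132 (the same, osteoclasts) and 3345 against 1080 (difference of responses). With normexp they were 551, 534 and 700 for the last 3, and with the authors' values 695 in osteoclasts. The cause was not tested, except that without the filter more genes enter. Median centring moved 3 splits into higher and lower by over 10 percentage points, to 996 and 316 against 556 and 576 (LysM-St18flox against wild-type, osteoclasts), to 2203 and 1522 against 1701 and 1905 (osteoclasts against macrophages, LysM-St18flox) and to 807 and 366 against 438 and 642 (difference of responses). Genotype splits in osteoclasts were 316 and 218 with normexp, 646 and 393 with quantile normalization and 432 and 263 with the authors' values, and normexp gave 372 and 328 for the difference of responses. No paired analysis was possible because each group had 1 array. Signals near background limit Cd163 in osteoclasts and Mrc2 everywhere.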

Other observations

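Stab2, the relative of Stab1 found in sinusoidal endothelium, was dim but well above background on all 4 arrays. It was at -3.62 in LysM-St18flox osteoclasts and -3.55 in wild-type osteoclasts, against -2.28 in LysM-St18flox macrophages and -3.29 in wild-type macrophages. LysM-St18flox macrophages stood above the other 3 arrays, by 1.01 over wild-type macrophages. Pltp and Abca1, which move phospholipid and cholesterol out of cells, were also higher in LysM-St18flox macrophages than in wild-type macrophages (2.67 and 1.61), and their differences in osteoclasts were 0.60 and 0.54. These genes were chosen after their values were seen.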
